A study of Homo sapiens with 8 samples.

Results

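The collagen genes are the genes of the deposited count table whose GENCODE symbol consists of COL, a number, A and a number. There were 44 of them among 57500 genes, and they were placed in 8 classes by the structure their chains are known to form. RNA was sequenced from HEK293T cells, a line of human embryonic kidney origin with the large T antigen of SV40. The Control group held 4 libraries of cells given vehicle, and the DZNep group held 4 libraries of cells given 100 µM DZNep for 48 h, with replicates numbered 1 to 4 in each group. DZNep is short for 3-deazaneplanocin A, a compound related to adenosine. It inhibits the enzyme AHCY, which breaks down S-adenosyl-L-homocysteine, and is used to lower methylation in cells. The comparison asks which transcripts differ between cells given DZNep and cells given vehicle. The activity of AHCY was not measured in these libraries, and DZNep can act on other proteins. All 8 libraries came from 1 cell line. The labels call the libraries of a group replicates without naming separate cultures, so p-values measure the spread between these libraries.

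Collagens are the main structural proteins of the extracellular matrix, and each molecule is a helix of intertwined alpha chains that repeat glycine at regular steps. Fibrillar chains assemble into the fibrils of skin, bone and cartilage, and FACIT chains (fibril-associated collagens with interrupted helices) sit on the surface of such fibrils. Type IV chains form the network of basement membranes, type VI chains form beaded filaments, and the transmembrane collagens are anchored in the plasma membrane and can be shed from it. Several types are built from chains of different genes, so the relative level of these genes matters for which molecules a cell can assemble.

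The libraries held between 25043058 and 44902779 counts, and Control replicate 1 was the shallowest. A normalized count is the count divided by the size factor of its library, and log2 fold changes (DZNep over Control, ± standard error) and adjusted p-values come from edgeR's quasi-likelihood test over 19171 genes with Benjamini-Hochberg adjustment. Where 4 values are given for a group they are normalized counts in the order of replicates 1 to 4, and a value ± error beside an adjusted p in parentheses is a log2 fold change with its standard error. A gene was called when its adjusted p was under 0.05 and its absolute log2 fold change was over 1. Of the markers for kidney epithelium, PAX2, LHX1, CDH2 and KRT18 were present in every library, while PAX8 was at or near 0, with no more than 6.44 normalized counts. HBB, a blood marker, had no count in any library.

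DZNep replicate 2 stood apart from the other DZNep libraries for 2 collagen genes. COL1A2, the second chain of type I collagen, had 15.3 normalized counts there and 1647, 1072 and 1550.2 in DZNep replicates 1, 3 and 4. COL6A3, a chain of type VI collagen, had 11.3 there and 526, 353 and 405 in the others. Over all genes with at least 50 normalized counts in each of the other 3 libraries of the group, 33 genes of DZNep replicate 2 were more than 4 times lower than the lowest of them, against 0 to 3 genes in each of the other 7 libraries. The fibroblast and matrix genes POSTN, GREM1 and MMP1 and the myeloid genes ELANE, PRTN3, AZU1 and TREM2 were among the 33 and were picked for naming after their values were seen. The 8 fibroblast markers summed to 2987 normalized counts in DZNep replicate 2 and to 5036 to 5581 in the other DZNep libraries, and to 5776 to 7092 in the Control libraries. Most of each sum was FBLN1, with 2402 in DZNep replicate 2, 3582 to 3698 in the other DZNep libraries and 4894 to 6147 in the Control libraries. None of the 8 was at 0 in DZNep replicate 2, where FAP was lowest at 2.42. Whether the transcripts of these genes, COL1A2 and COL6A3 among them, came from HEK293T cells in the other 7 libraries was not tested. In bulk RNA, fewer cells of a type and less RNA per cell cannot be told apart, and the part of this library in the results was not tested beyond refitting without it. Calls of named genes that rest on it are given with and without it.

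**Figure D1:**
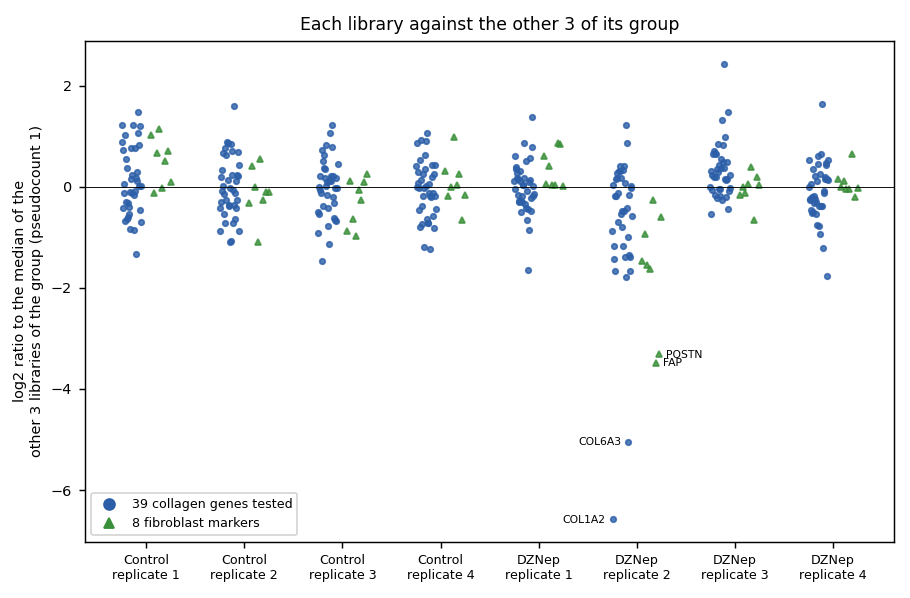
Log2 ratio (pseudocount 1) of each normalized count to the median of the other 3 libraries of its group, for the 39 collagen genes tested (circles) and 8 fibroblast markers (triangles). COL1A2, COL6A3, POSTN and FAP in DZNep replicate 2 are the only points below -2.

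Of the 44 collagen genes, 39 passed the filter on low counts. Among these 39, 6 were higher with DZNep (15.4%), against 10.6% of all genes tested, and 9 were lower (23.1%), against 13.5% of all genes. The higher genes were COL9A1, COL11A2, COL17A1, COL6A5, COL14A1 and COL16A1, and the lower genes were COL23A1, COL13A1, COL5A1, COL4A1, COL18A1, COL27A1, COL6A2, COL4A5 and COL7A1. COL17A1 had 0 and COL6A5 had 1 of 4 Control libraries over the filter, so both entered the test through their DZNep libraries, and with at least 10 counts in every library neither was tested. Among FACIT genes, 3 of 8 tested were higher and 0 lower, and among type IV genes 2 of 6 were lower and 0 higher by edgeR. DESeq2 gave 0 in these directions as well, and so did an unadjusted p under 0.05. Fibrillar genes had 1 higher and 2 lower of 11, transmembrane genes 1 higher and 2 lower of 4, and type VI genes 1 higher and 1 lower of 5. The multiplexins had 1 lower of 2, and the remaining genes (COL7A1, COL26A1 and COL28A1) had 1 lower of 2 tested.

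The adjusted p alone was passed by 7 higher and 12 lower collagen genes, where 19.1% of all genes were higher and 21.8% were lower by this criterion. The 4 genes that this adds, all with smaller changes, were COL5A2 on the higher side and COL2A1, COL4A3 and COL4A2 on the lower side. The lowest DZNep library exceeded the highest Control library for 7 of the 39 genes, against 19.5% of all genes. The reverse held for 11 of the 39, against 19.4% of all genes. The median log2 fold change of the 39 genes was -0.22, against -0.03 over all genes tested. Genes that are low in both groups do not enter these counts and medians, and no test of the list was made. Without DZNep replicate 2, 7 collagen genes were higher and 10 were lower, where 9.97% and 12.1% of all genes were called, and the genes that this adds were COL5A3 and COL4A3.

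**Figure D2:**
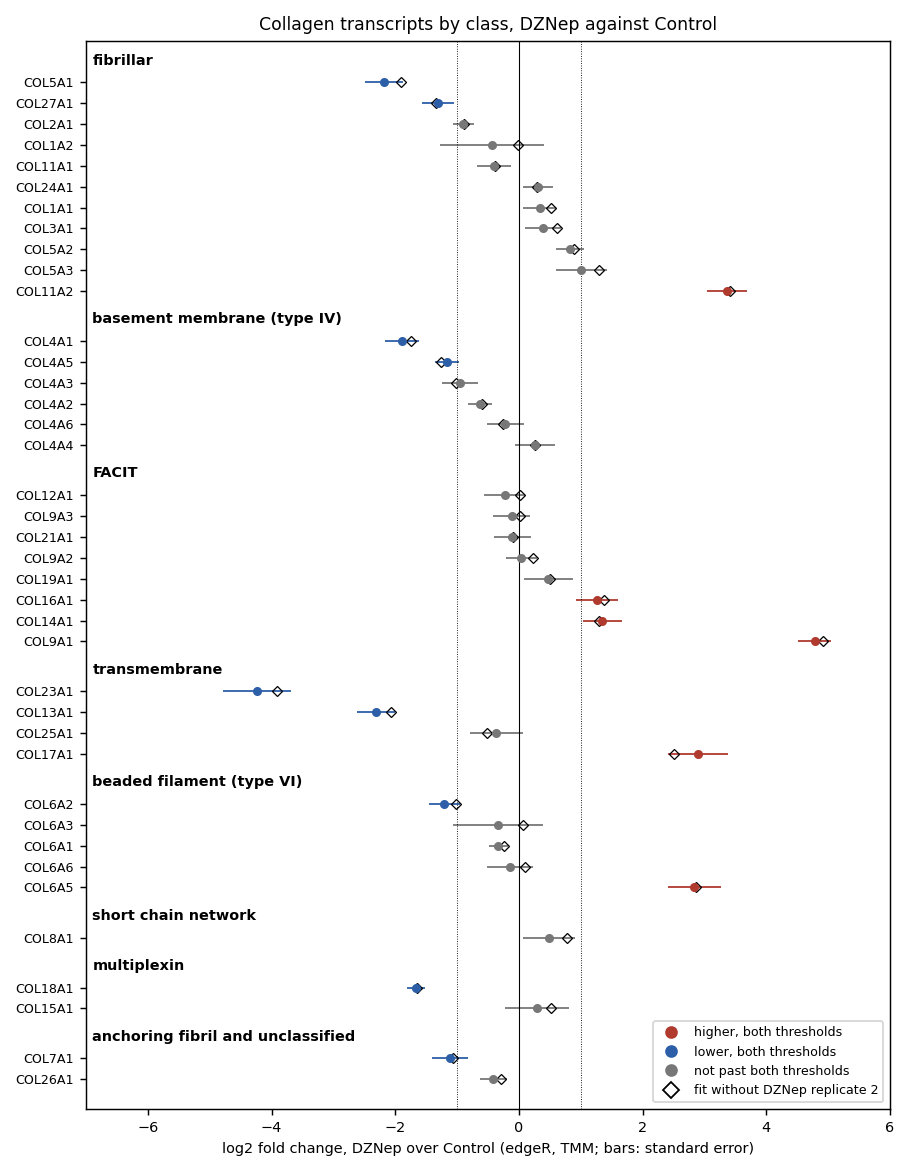
Log2 fold change of each of the 39 tested collagen genes by class, with the standard error as a bar, and the fold change without DZNep replicate 2 as an open diamond. The changes run from -4.25 for COL23A1 to 4.79 for COL9A1, and the diamonds sit apart from the circles for COL1A2 and COL6A3.

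Collagen transcripts as a whole took 0.0846% ± 0.0091 of the counts in the Control group and 0.0648% ± 0.0132 in the DZNep group (SD, n = 4), and the groups overlapped, with DZNep replicate 3 (0.0798%) above Control replicate 4 (0.0717%). Control replicate 4 had 13.7% of its counts on mitochondrial transcripts, against 3.02% to 10.1% in the other libraries, and without these transcripts the same 2 libraries stood at 0.0835% and 0.0830%. In normalized counts the summed level did not overlap, with 31480 to 33077 in the Control libraries and 17992 to 27559 in the DZNep libraries. Per kb of exon, COL6A1 was the most abundant member in both groups, at a mean of 1076 normalized counts per kb in Control and 867 with DZNep. In Control it was followed by COL6A2 (579.7), COL1A1 (338), COL18A1 (329) and COL2A1 (205). With DZNep the next in order were COL1A1 (434), COL6A2 (256), COL3A1 (238) and COL5A2 (129). In Control, the libraries of COL6A2 and COL1A1 overlapped on this scale, as did those of COL1A1 and COL18A1, and with DZNep each neighbour below COL6A1 in this order overlapped with the next. The share of FACIT genes among collagen counts was 3.40% to 4.66% in the Control libraries and 7.26% to 8.51% in the DZNep libraries, and that of the multiplexins was 6.79% to 9.78% and 3.18% to 4.91%. These shares move with the collagen total as well. The summed FACIT level itself was 1099 to 1467.6 normalized counts in the Control libraries and 1460.2 to 2039 in the DZNep libraries, which overlapped, and its mean went from 1286 to 1858, while that of COL9A1 alone went from 12.1 to 345.

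Among the FACIT genes, COL9A1 rose the most of all collagen genes. It encodes the alpha 1 chain of type IX collagen, which decorates the type II fibrils of cartilage (ENSG00000112280, chr6:70216040-70303084 of GRCh38, minus strand). COL9A1 had 10.8, 8.93, 11.7 and 17.2 normalized counts in Control replicates 1 to 4 and 372, 256, 361 and 389 in DZNep replicates 1 to 4. Every DZNep library was over 10 times as high as every Control library, and the mean moved from 12.1 ± 3.55 to 345 ± 60.1 (SD, n = 4), 28.4-fold, with a log2 fold change of 4.79 ± 0.27 (adjusted p = 3.94e-06). Only 3 of the 4 Control libraries were over the filter on low counts, so the Control level rests on few reads.

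The other chains of type IX collagen were not called. COL9A2 had 338, 261, 302 and 388 in the Control libraries and 347, 201, 338 and 466 in the DZNep libraries, with a log2 fold change of 0.04 ± 0.25 (adjusted p = 0.911). COL9A3, the most abundant FACIT gene, had 612, 288, 360.1 and 678 in the Control libraries and 459.8, 329, 408 and 623 in the DZNep libraries (-0.12 ± 0.30, adjusted p = 0.778). The groups overlapped for both genes, and the sign of these small changes depends on single libraries. Per kb of exon, COL9A1 stood at 0.0152 ± 0.00222 of COL9A2 in Control and at 0.433 ± 0.0728 with DZNep, while COL9A3 stood at 1.27 ± 0.32 and 1.20 ± 0.157 of COL9A2. Per kb, COL9A1 thus stayed below its partner chains in every DZNep library, where the highest ratio to COL9A2 was 0.519. For COL9A2 this depends on the exon lengths used, which cover all annotated exons (10329 bases for COL9A1, 4215 for COL9A2). In normalized counts, COL9A1 was above COL9A2 in DZNep replicates 1, 2 and 3 and below it in DZNep replicate 4. The length of the transcripts in use was not tested.

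COL14A1 and COL16A1, FACIT genes whose chains form molecules of their own, rose as well. COL14A1 (ENSG00000187955) had 97.1, 176, 106 and 67.7 in the Control libraries and 260.3, 329, 381 and 191 in the DZNep libraries. The lowest DZNep library was above the highest Control library by a small margin, and the log2 fold change was 1.35 ± 0.31 (adjusted p = 0.00624). COL16A1 (ENSG00000084636, chr1:31652263-31704319) had 83.2, 34.8, 33.1 and 74.1 in the Control libraries and 174, 105, 121 and 145 in the DZNep libraries (1.26 ± 0.34, adjusted p = 0.0135), again without overlap. COL12A1, COL19A1 and COL21A1 were not called, with log2 fold changes between -0.23 and 0.47. COL20A1 and COL22A1 were too low to test, with no more than 17.0 normalized counts in a library.

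Transcripts of COL9A1 have an outer and an inner start in RefSeq, and the DNA before each is shown because the counts per gene do not separate them. Both stretches are read on the minus strand of GRCh38.p14, and capitals mark a CCAAT box. The outer stretch is the 250 bases before the outer start (chr6:70303085-70303334).
COL9A1 outer start: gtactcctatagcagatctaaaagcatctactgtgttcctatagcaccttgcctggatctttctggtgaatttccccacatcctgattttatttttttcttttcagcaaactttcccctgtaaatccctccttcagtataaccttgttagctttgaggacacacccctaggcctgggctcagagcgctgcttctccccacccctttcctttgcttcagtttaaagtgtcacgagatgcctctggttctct
The inner stretch (chr6:70283246-70283447) is the part of the 250 bases before the inner start that no GENCODE exon covers.
COL9A1 inner start: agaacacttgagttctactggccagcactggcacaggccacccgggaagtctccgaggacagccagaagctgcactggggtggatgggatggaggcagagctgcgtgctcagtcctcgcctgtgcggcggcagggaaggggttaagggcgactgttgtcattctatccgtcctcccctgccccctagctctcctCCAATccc
The outer stretch had 2 CpG and no TATA box, CCAAT box or GC box, and the inner stretch had 8 CpG and 1 CCAAT box in capitals. Which start was used was not tested.

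Of the 11 fibrillar genes, COL11A2 rose and COL5A1 and COL27A1 fell. COL11A2 encodes the alpha 2 chain of type XI collagen, the minor collagen inside cartilage fibrils (ENSG00000204248, chr6:33162681-33192499). It had 29.3, 19.6, 9.85 and 29.0 normalized counts in Control replicates 1 to 4 and 231, 205, 206 and 266 in DZNep replicates 1 to 4. The groups were far apart, 10.3-fold in the mean (21.9 ± 9.23 to 227 ± 28.4), with a log2 fold change of 3.37 ± 0.32 (adjusted p = 4.55e-05). COL11A1, which encodes the alpha 1 chain of the same type, had 442, 708, 734 and 408 in the Control libraries and 391, 434, 641 and 304 in the DZNep libraries, with a log2 fold change of -0.40 ± 0.27 (adjusted p = 0.266) that passed with the replicate number as a block (adjusted p = 0.02). COL2A1, whose product is the major collagen of cartilage and also serves as a chain of type XI, had 1051, 1611, 1403 and 1396 in the Control libraries and 722, 741, 895 and 623 in the DZNep libraries. It was lower in every DZNep library than in any Control library and passed the adjusted p, but its log2 fold change of -0.90 ± 0.17 (adjusted p = 0.00234) was short of the fold threshold, which it passed without Control replicate 1 (-1.02). Per kb, COL11A2 moved from 0.0551 ± 0.0351 to 0.697 ± 0.289 of COL11A1, and it exceeded COL11A1 in DZNep replicate 4 (1.08).

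Beside these cartilage collagen genes, 0 of the 5 chondrocyte markers tested (the list has 7) were called by edgeR, with 1 at an unadjusted p under 0.05. DESeq2 called 1 marker of the list, HAPLN1, which is not among these 5. MATN3 passed the adjusted p, with a log2 fold change of 0.83 ± 0.26 (adjusted p = 0.0254). Their summed level was 204 to 265 normalized counts in the Control libraries and 267 to 397 in the DZNep libraries. CNMD was at or near 0 in all libraries (at most 3.46). HAPLN1 was at 0 in all 4 Control libraries and between 4.83 and 19.1 in the DZNep libraries, and did not pass edgeR's filter with all libraries. DESeq2 called it higher (5.90, adjusted p = 2.58e-05). So did edgeR without a filter (6.6, adjusted p = 0.000286) and without DZNep replicate 2 (6.82, adjusted p = 0.00225). With no count in Control, the size of its fold change is uncertain. Of the cartilage transcription factors, SOX9 had 688, 476, 521 and 717 in the Control libraries and 1099, 812, 1083 and 1132 in the DZNep libraries and passed the adjusted p without reaching the fold threshold, with a log2 fold change of 0.75 ± 0.18 (adjusted p = 0.00813). SOX5 (0.18) and SOX6 (0.08) did not pass. The part of these genes in the change of COL9A1 and COL11A2 was not tested.

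COL5A1 encodes the alpha 1 chain of type V collagen, which takes part in starting type I fibrils (ENSG00000130635, chr9:134641803-134844843). It had 1330.4, 1362, 1587 and 1441 normalized counts in Control replicates 1 to 4 and 452, 133, 343 and 358 in DZNep replicates 1 to 4. DZNep replicate 2 was the lowest, and the groups were apart by a wide margin, with a log2 fold change of -2.18 ± 0.31 (adjusted p = 0.000412), or -1.92 without that library. COL5A2 encodes the chain it is assembled with, and was above every Control library in every DZNep library, with 535, 647, 516 and 392 in the Control libraries and 939, 834, 1314 and 687 in the DZNep libraries. It passed the adjusted p with a log2 fold change of 0.83 ± 0.23 (adjusted p = 0.0141) that was under the fold threshold. The ratio of COL5A1 to COL5A2 per kb went from 1.86 ± 0.451 to 0.233 ± 0.114, so that COL5A1 was the more abundant in every Control library and the less abundant in every DZNep library.

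COL5A3, the third chain of type V, turned on single libraries. It had 80.2, 39.3, 35.8 and 38.7 in the Control libraries and 128, 37.9, 122 and 106 in the DZNep libraries. Control replicate 1 and DZNep replicate 2 were each far from the rest of their group, and the log2 fold change of 1.01 ± 0.41 (adjusted p = 0.0729) missed the adjusted p. Without DZNep replicate 2 it was 1.29 (adjusted p = 0.013), without Control replicate 1 it was 1.33 (0.0332), and with the replicate block it was 0.95 (0.0103). COL27A1, a fibrillar gene expressed in cartilage and other tissues (ENSG00000196739, chr9:114155537-114312511), had 644, 394, 494 and 945 in the Control libraries and 222, 273, 279 and 242 in the DZNep libraries and fell with a log2 fold change of -1.31 ± 0.26 (adjusted p = 0.00257). Its Control libraries were more spread than its DZNep libraries, with SDs of 241 and 26.7.

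The type I genes COL1A1 and COL1A2 were not called, and neither were COL3A1 and COL24A1. COL1A1, the most abundant fibrillar gene, had 4386, 2382, 2248 and 3170.4 in the Control libraries and 4682, 2365, 4300.4 and 4293 in the DZNep libraries, with a log2 fold change of 0.33 ± 0.27 (adjusted p = 0.345), or 0.52 without DZNep replicate 2. COL1A2 had 2168, 923, 898 and 1689.9 in the Control libraries and 1647, 15.3, 1072 and 1550.2 in the DZNep libraries. Its log2 fold change was -0.43 ± 0.84 (adjusted p = 0.714) with all libraries and -0.01 ± 0.33 without DZNep replicate 2. COL1A2 stood at 0.323 to 0.444 of COL1A1 per kb in Control and at 0.208 to 0.301 in DZNep replicates 1, 3 and 4, and at 0.00539 in DZNep replicate 2. COL3A1 and COL24A1 had log2 fold changes of 0.39 and 0.31.

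**Figure D3:**
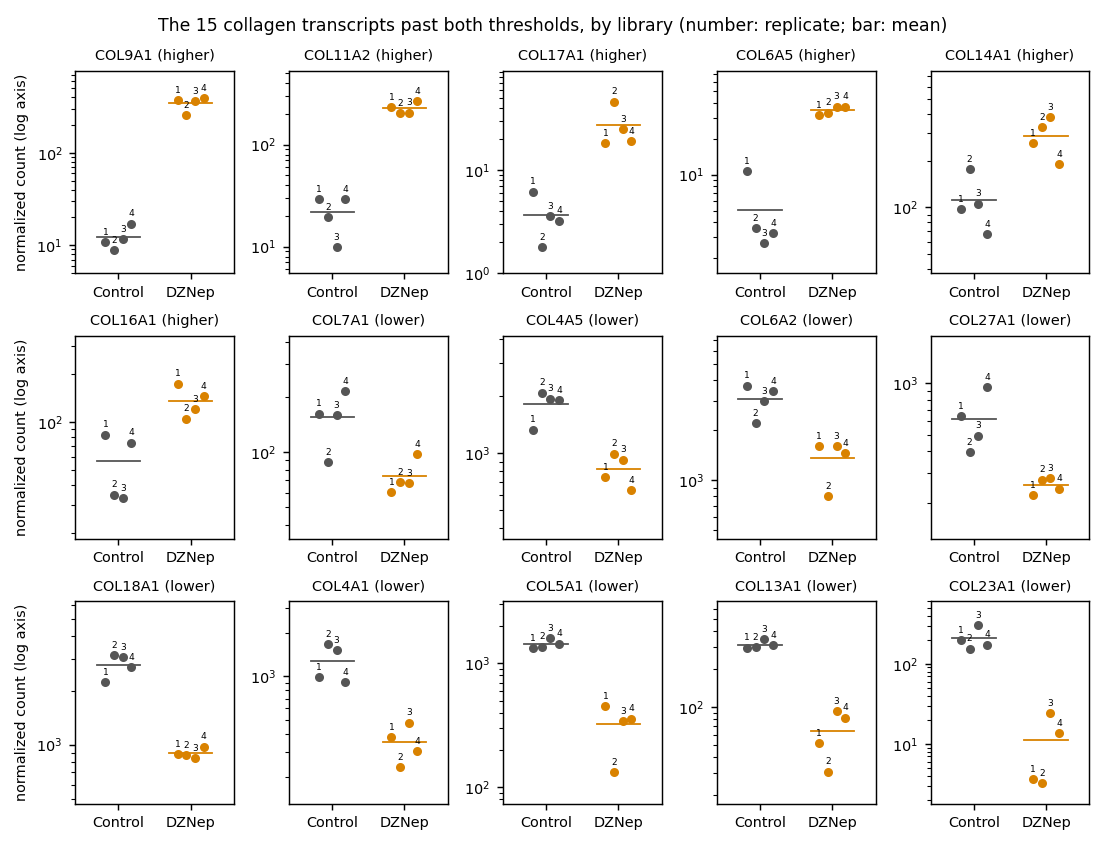
Normalized counts (log axis) of the 15 collagen genes past both thresholds in each library, numbered by replicate, with the group mean as a bar. The groups overlap for COL7A1 alone, and DZNep replicate 2 is the lowest library for COL5A1, COL13A1, COL23A1, COL4A1 and COL6A2.

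Type IV collagen, the network of basement membranes, is encoded by 6 genes in 3 pairs. The genes of a pair lie head to head and are transcribed in opposite directions from starts close to each other. COL4A1 (ENSG00000187498, chr13:110148963-110307157) had 985, 1677, 1527 and 912 normalized counts in Control replicates 1 to 4 and 379, 234, 477 and 304 in DZNep replicates 1 to 4. It fell with a log2 fold change of -1.90 ± 0.27 (adjusted p = 0.000429), without overlap between the groups. COL4A2, the most abundant of the 6, had 1941, 3499.7, 2947 and 2265 in the Control libraries and 1782, 1638, 2082 and 1513 in the DZNep libraries and passed the adjusted p with a smaller log2 fold change of -0.63 ± 0.20 (adjusted p = 0.0291). When each library was left out in turn, the adjusted p of COL4A2 ran from 0.0141 to 0.0818, with 0.0809 without DZNep replicate 2. Without a filter on low counts it was 0.0547. COL4A5 (ENSG00000188153, chrX:108439838-108697545) had 1332, 2088, 1944 and 1908 in the Control libraries and 748, 994, 925 and 636 in the DZNep libraries and fell with a log2 fold change of -1.17 ± 0.20 (adjusted p = 0.00104), while its neighbour COL4A6 had 796, 1452, 1409 and 619 in the Control libraries and 901, 1019.6, 1209 and 608 in the DZNep libraries (-0.22 ± 0.30, adjusted p = 0.592). COL4A3 and COL4A4, whose products belong to the kidney glomerulus, were low. COL4A3 had 17.0, 17.9, 23.3 and 21.5 in the Control libraries and 9.07, 12.1, 9.50 and 11.2 in the DZNep libraries. It passed the adjusted p (-0.95 ± 0.30, adjusted p = 0.0265), and without DZNep replicate 2 also the fold threshold (-1.02). COL4A4 had 47.8, 104, 63.6 and 55.9 in the Control libraries and 59.0, 83.8, 123 and 67.5 in the DZNep libraries (0.26 ± 0.32, adjusted p = 0.551). The gene MFF-DT shares 6.82% of the exon bases of COL4A3, and the strand setting of the counting is not given in the sources used here.

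In each pair 1 gene was lower relative to the other with DZNep. COL4A1 stood at 0.627 ± 0.0685 of COL4A2 per kb in Control and at 0.258 ± 0.0495 with DZNep, COL4A5 at 1.48 ± 0.628 and 0.707 ± 0.101 of COL4A6, and COL4A3 at 0.307 ± 0.0958 and 0.130 ± 0.0383 of COL4A4. The groups did not overlap in any of the 3 ratios, although for COL4A3 over COL4A4 the lowest Control library (0.164) and the highest DZNep library (0.160) nearly met. Among all 723 head-to-head pairs of protein-coding genes with starts under 1000 bases apart and counts in every library, 40.4% had a ratio that did not overlap between the groups, so a shift of this kind was common among neighbours. COL4A1 and COL4A2 are not in that set, because GENCODE lets COL4A2 begin inside COL4A1.

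The DNA between the starts of each pair is shown because a single stretch lies before both genes. It is given on the plus strand of GRCh38.p14, from the gene on the minus strand to the RefSeq start of the other, and capitals mark the CCAAT box and the GC box (GGGCGG) on either strand. The first lies at chr13:110307158-110307283, with 26 bases in an exon of another COL4A2 transcript in GENCODE, the second at chr2:227164454-227164623, beginning past the GENCODE end of COL4A4 and not at its RefSeq start, which lies further inside that gene, and the third, of which the 250 bases next to COL4A5 are given, at chrX:108439588-108439837.
COL4A1 to COL4A2: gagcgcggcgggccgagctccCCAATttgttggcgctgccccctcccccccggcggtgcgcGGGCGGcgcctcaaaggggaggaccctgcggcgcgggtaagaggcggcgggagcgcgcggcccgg
COL4A4 to COL4A3: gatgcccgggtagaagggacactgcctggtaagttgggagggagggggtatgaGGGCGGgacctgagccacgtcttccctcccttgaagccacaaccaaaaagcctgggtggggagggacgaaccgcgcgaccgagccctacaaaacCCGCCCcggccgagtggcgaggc
COL4A6 to COL4A5: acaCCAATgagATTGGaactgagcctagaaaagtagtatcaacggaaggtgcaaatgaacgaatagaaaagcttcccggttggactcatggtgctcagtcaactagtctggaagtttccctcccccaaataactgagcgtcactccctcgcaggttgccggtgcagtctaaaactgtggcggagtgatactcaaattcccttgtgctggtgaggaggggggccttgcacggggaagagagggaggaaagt
The stretch of COL4A1 and COL4A2 had 20 CpG, 1 CCAAT box and 1 GC box. That of COL4A4 and COL4A3 had 12 CpG and 2 GC boxes, and that of COL4A6 and COL4A5 had 8 CpG and 2 CCAAT boxes. COL4A6 also has a RefSeq start further inside the gene, at chrX:108438422, which the stretch shown does not directly precede. Use of either start was not tested. A match is a description of the letters and not a shown binding site.

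**Figure D4:**
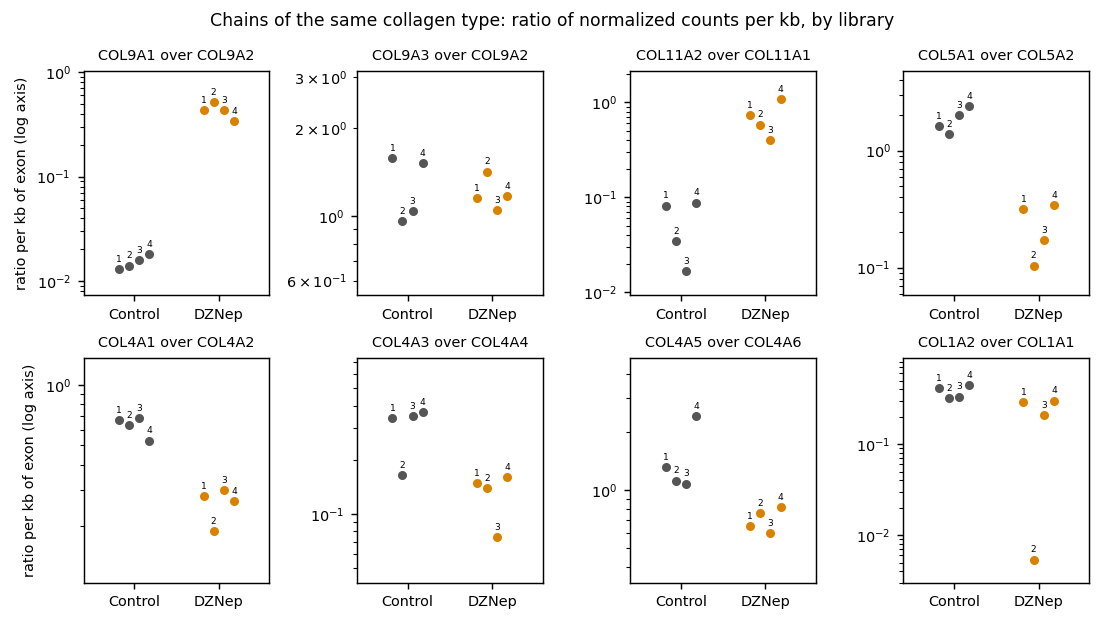
Ratio of normalized counts per kb of exon (log axis) between chains of the same collagen type in each library, numbered by replicate. Groups are apart for COL9A1 over COL9A2, COL11A2 over COL11A1, COL5A1 over COL5A2 and the 3 type IV pairs, overlap for COL9A3 over COL9A2, and are apart for COL1A2 over COL1A1 with DZNep replicate 2 far below.

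Of the 4 transmembrane collagen genes, COL23A1 and COL13A1 fell. COL23A1 (ENSG00000050767, chr5:178237476-178590393), a transmembrane collagen that is shed by furin-type proteases, had the largest decrease of the family. It had 197, 154, 304 and 174 normalized counts in Control replicates 1 to 4 and 3.63, 3.22, 24.2 and 13.5 in DZNep replicates 1 to 4. The highest DZNep library stayed far below the lowest Control library, and the log2 fold change was -4.25 ± 0.55 (adjusted p = 0.000239), or -3.91 without DZNep replicate 2. Only 2 of the 4 DZNep libraries were over the filter on low counts, so its DZNep level rests on few reads.

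COL13A1 (ENSG00000197467, chr10:69801880-69964275), a transmembrane collagen of cell adhesions and the neuromuscular junction, had 294, 296, 345 and 309 in the Control libraries and 51.7, 30.6, 92.4 and 82.1 in the DZNep libraries. Its Control libraries lay close together, and it fell with a log2 fold change of -2.31 ± 0.31 (adjusted p = 0.000297), or -2.06 without DZNep replicate 2. COL17A1 (ENSG00000065618, chr10:104031286-104085880), the hemidesmosomal collagen of epithelia, rose from a low level. It had 6.17, 1.79, 3.58 and 3.22 in the Control libraries and 18.1, 45.9, 25.1 and 19.1 in the DZNep libraries, with a log2 fold change of 2.89 ± 0.49 (adjusted p = 0.00105). No Control library was over the filter on low counts, so the gene entered the test through its DZNep libraries and the size of its fold change is uncertain. COL25A1, the most abundant transmembrane collagen gene, had 249.7, 818, 624 and 268 in the Control libraries and 278, 507, 550.2 and 218 in the DZNep libraries (-0.36 ± 0.42, adjusted p = 0.527), with overlapping groups.

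The 250 bases before the starts of the transmembrane genes with the largest rise and the largest fall are shown because they differ in base composition. Both are read on the minus strand of GRCh38.p14, and capitals mark the same motifs or the TATA box on either strand. They lie at chr10:104085881-104086130 and chr5:178590394-178590643.
COL17A1: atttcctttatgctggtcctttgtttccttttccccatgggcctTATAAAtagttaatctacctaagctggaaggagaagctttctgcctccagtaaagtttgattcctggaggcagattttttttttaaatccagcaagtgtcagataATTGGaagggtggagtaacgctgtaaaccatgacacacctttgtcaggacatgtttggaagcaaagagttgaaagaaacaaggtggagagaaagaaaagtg
COL23A1: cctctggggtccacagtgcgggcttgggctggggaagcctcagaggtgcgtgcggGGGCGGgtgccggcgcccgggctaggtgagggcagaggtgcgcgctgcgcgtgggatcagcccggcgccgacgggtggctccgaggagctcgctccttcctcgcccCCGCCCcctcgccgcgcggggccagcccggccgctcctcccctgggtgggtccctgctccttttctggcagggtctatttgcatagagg
The COL17A1 stretch had 40.4% GC, 1 CpG, 1 TATA box and 1 CCAAT box, and the COL23A1 stretch had 74.4% GC, 25 CpG and 2 GC boxes.

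RefSeq windows from 250 bases before to 50 bases after a start were matched for 32 of the 44 collagen genes, with 44 windows. COL1A1, COL1A2, COL2A1, COL3A1, COL5A2, COL6A1, COL6A5, COL8A1, COL9A3, COL14A1, COL20A1 and COL22A1 had none in the table. Over both strands, TATAAA was present in 8 of the 44 windows and in 11.5% of all 35116 windows. CCAAT was present in 14 of them and in 34.6% of all windows, and GGGCGG in 24 of them and in 45% of all windows. The observed to expected CpG ratio had a median of 0.584 over collagen windows and 0.579 over all windows. Taking the highest ratio per gene, the 4 higher genes with a window ran from 0.082 (COL17A1) to 0.933 (COL11A2), and the 9 lower genes from 0.46 (COL4A5) to 1.02 (COL4A1), so the ranges of the higher and lower genes overlapped.

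Type VI collagen, the beaded filament around many cells, held the most abundant transcripts of the family. COL6A1, its alpha 1 chain, had 6182, 5663, 6572 and 5401 in the Control libraries and 5154, 3835, 5372 and 4846 in the DZNep libraries. Every DZNep library was below every Control library by a small margin, and the log2 fold change of -0.34 ± 0.15 (adjusted p = 0.104) missed the threshold and passed it with the replicate block (-0.34, adjusted p = 0.0173). COL6A2 (ENSG00000142173, chr21:46098112-46132848), its neighbour on the same chromosome, had 3712, 2206, 3012 and 3437 in the Control libraries and 1609, 799, 1596 and 1460.2 in the DZNep libraries. It fell with a log2 fold change of -1.21 ± 0.25 (adjusted p = 0.00329), and DZNep replicate 2 was the lowest by far, with -1.01 without that library. The ratio of COL6A2 to COL6A1 per kb went from 0.541 ± 0.121 to 0.290 ± 0.0498 without overlap.

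COL6A3 had 639.8, 304, 267 and 408 in the Control libraries and 526, 11.3, 353 and 405 in the DZNep libraries. Its log2 fold change was -0.34 ± 0.73 (adjusted p = 0.737) with all libraries and 0.07 without DZNep replicate 2. COL6A5 (ENSG00000172752, chr3:130345516-130484846), which encodes an alternative to the alpha 3 chain, rose from 10.8, 3.57, 2.69 and 3.22 normalized counts in the Control libraries to 31.7, 33.0, 37.1 and 37.1 in the DZNep libraries. Its log2 fold change was 2.83 ± 0.43 (adjusted p = 0.000576), with 1 of 4 Control libraries over the filter on low counts. The neighbouring and related gene COL6A6 was low in both groups, with 24.7, 28.6, 24.2 and 16.1 in the Control libraries and 19.9, 10.5, 28.5 and 28.1 in the DZNep libraries (-0.14 ± 0.37, adjusted p = 0.79).

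The multiplexin COL18A1, a basement membrane collagen whose end is cleaved to give endostatin (ENSG00000182871, chr21:45405165-45513720), had 2218, 3149, 3055 and 2712 normalized counts in Control replicates 1 to 4 and 887, 872, 844 and 974 in DZNep replicates 1 to 4. It fell with a log2 fold change of -1.67 ± 0.15 (adjusted p = 3.58e-05), and its DZNep libraries lay within a narrow range. SLC19A1 shares 18.5% of its exon bases, so reads of that stretch cannot be assigned without the strand. COL15A1, the other multiplexin, was low and had a log2 fold change of 0.30 ± 0.52 (adjusted p = 0.68). COL7A1, the anchoring fibril collagen that ties the epidermal basement membrane to the dermis (ENSG00000114270, chr3:48564073-48595329), had 162, 88.4, 159 and 215 in the Control libraries and 60.8, 68.5, 67.4 and 97.9 in the DZNep libraries. Its groups overlapped through Control replicate 2, its log2 fold change was -1.11 ± 0.29 (adjusted p = 0.0109), and without Control replicate 4 it was -0.93 and under the fold threshold.

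COL26A1, the most abundant of the unclassified genes, had 248, 404, 411 and 299 in the Control libraries and 259, 192, 306 and 286 in the DZNep libraries (-0.41 ± 0.22, adjusted p = 0.155). Of the short chain network genes, COL8A1 had 89.4, 50, 37.6 and 60.2 in the Control libraries and 129.7, 31.4, 74.3 and 101 in the DZNep libraries (0.49 ± 0.42, adjusted p = 0.383), and COL8A2 and COL10A1 were too low to test, as was COL28A1. COL28A1 was nonetheless above every Control library in every DZNep library, with 1.54, 5.36, 0.896 and 2.15 in the Control libraries and 17.2, 6.44, 16.4 and 7.88 in the DZNep libraries, and DESeq2, which tested more genes, gave log2 fold changes of 2.23 for COL28A1 (adjusted p = 0.0177) and 1.83 for COL8A2 (0.0491). The groups of COL8A2 overlapped (at most 7.14 in Control, at least 5.18 with DZNep), and edgeR without a filter called COL28A1 (adjusted p = 0.0243) and did not call COL8A2 (0.0543).

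Genes that fold, process, crosslink, bind or accompany collagens were taken from 8 lists with 78 members, of which 76 were tested. Among these, 5 were higher (6.58%) and 15 were lower (19.7%), against 10.6% and 13.5% of all genes. Their median log2 fold change was -0.13. In parentheses below are the log2 fold change ± standard error and the adjusted p.

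Chain folding and modification had 0 higher and 2 lower of 18 genes. CRTAP, the cartilage-associated protein of the prolyl 3-hydroxylase complex, had 6903, 7614, 7288 and 6466 normalized counts in Control replicates 1 to 4 and 1450.2, 1059.9, 1573 and 1403 in DZNep replicates 1 to 4. It fell without overlap between the groups, with a log2 fold change of -2.39 ± 0.16 (adjusted p = 8.88e-06). COLGALT2, a galactosyltransferase of hydroxylysine, fell as well (-1.23 ± 0.28, 0.00548). SERPINH1, the collagen chaperone HSP47, was not called (-0.08 ± 0.17, 0.72), and it was picked after its values were seen. Of the 8 secretion genes 0 were called by edgeR and by DESeq2, with 2 lower at an unadjusted p under 0.05.

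Propeptide removal had 1 higher and 3 lower of 9 genes tested, and 2 of 5 crosslinking genes were lower. ADAMTS2 and ADAMTS14, proteases that remove the amino-terminal propeptides of fibrillar procollagens, fell, as did PCOLCE2, an enhancer of carboxy-terminal removal. ADAMTS2 had 789, 747, 901 and 943 in the Control libraries and 316, 183, 249 and 309 in the DZNep libraries (-1.71 ± 0.20, 0.000129). ADAMTS14 was low (-2.41 ± 0.39, 0.00086), with 0 DZNep libraries over the filter on low counts, and PCOLCE2 fell by less (-1.54 ± 0.14, 3.63e-05). MEP1B, a meprin subunit, rose from a low level (1.55 ± 0.39, 0.00901), with 1 of 4 Control libraries over the filter. Of the lysyl oxidase family, which crosslinks collagen and elastin, LOXL1 fell from 487, 274, 329.6 and 537 in the Control libraries to 101, 53.2, 86.4 and 128 in the DZNep libraries (-2.17 ± 0.31, 0.000394). LOXL4 fell too (-1.70 ± 0.35, 0.00316). LOX itself, also picked with its values known, was not called (0.62 ± 0.24, 0.0625).

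Receptors had 1 higher (11.1%) and 1 lower (11.1%) of 9 genes tested, against 10.6% and 13.5% of all genes. Collagen-degrading proteases had 1 higher of 7 (14.3%) and 0 lower. By the adjusted p alone 2 receptor genes were higher and 3 lower, where 19.1% and 21.8% of all genes were. This adds DDR1 (0.97 ± 0.26, 0.0131) on the higher side, and DDR2 (-0.83 ± 0.28, 0.0387) and MRC2 (-0.86 ± 0.21, 0.00856) on the lower side. ITGA10, the integrin subunit that binds type II collagen on chondrocytes, rose (2.21 ± 0.52, 0.00692), with 24.7, 3.57, 8.96 and 29.0 in the Control libraries and 68.9, 64.4, 66.5 and 104 in the DZNep libraries. ITGA1, a receptor subunit for type IV collagen, fell (-1.24 ± 0.39, 0.0276) with overlapping groups. It was not called when any of 5 libraries was left out (Control replicates 2 and 3 and DZNep replicates 1, 2 and 4), and over all 8 such fits its log2 fold change ran from -1.49 to -0.87 and its adjusted p up to 0.0742. Of 7 collagen-degrading proteases, MMP13, the collagenase of cartilage and bone, was the gene called. It rose from 3.08, 2.68, 1.79 and 5.37 to 51.7, 60.4, 52.7 and 63.0 normalized counts (4.08 ± 0.37, 3.41e-05). No Control library was over the filter on low counts for MMP13, so it entered the test through its DZNep libraries and the size of its fold change is uncertain.

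The basement membrane partners had the largest share of called genes among these lists, with 2 higher and 7 lower of 17. LAMB3, a subunit of the epithelial laminin that COL17A1 meets in hemidesmosomes, rose. It had 17.0, 12.5, 7.17 and 16.1 in the Control libraries and 137, 165, 149 and 82.1 in the DZNep libraries (3.33 ± 0.34, 6.84e-05). LAMA3, the alpha chain of the same laminin, went the other way, with 760.0, 1089, 1045 and 765 in the Control libraries and 230.4, 312, 372 and 215 in the DZNep libraries (-1.72 ± 0.22, 0.000225). AGRN, the heparan sulfate proteoglycan agrin, fell as well (-1.68 ± 0.21, 0.000224). The remaining lower genes, named with their values known, were HSPG2, LAMA5, LAMC3, NID1 and LAMB1, with log2 fold changes from -1.67 to -1.09. LAMB1 was under the fold threshold without Control replicate 2 and without DZNep replicate 4, at -0.98 in both fits.

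The cell type markers numbered 39, of which 32 were tested. Among these, 6 were higher (18.8%) and 1 was lower (3.12%), against 10.6% and 13.5% of all genes. Among 9 kidney epithelium markers CDH1 and KRT8 were higher and LHX1 was lower. By the adjusted p alone 5 were higher and 2 lower, with PAX2 among the lower (-0.54 ± 0.16, adjusted p = 0.0228). The summed level of the 9 markers was 8239 to 9574 normalized counts in Control and 13160 to 14202 with DZNep. Much of it was CDH2 (means of 4725 and 5637), KRT18 (2309 and 4173) and KRT8 (361 and 2001), while the mean of PAX2 went from 343 to 240. EPCAM, of the same list, was not called with all libraries (adjusted p = 0.0237, under the fold threshold). It was higher without DZNep replicate 2 (1.15, adjusted p = 0.00851) and also without Control replicate 4. Among 5 endothelial markers VWF, CDH5 and TEK were higher, with a summed level of 165 to 193 in Control and 221 to 355 with DZNep, and CDH5 was at 0 in 3 of 4 Control libraries. For VWF, CDH5 and TEK no Control library was over the filter on low counts. They thus entered the test through their DZNep libraries, which favours a call as higher, and the size of their fold changes is uncertain. TEK did not pass the filter without DZNep replicate 1 or without DZNep replicate 2. KDR was not called (1.48, adjusted p = 0.105) and was higher with the replicate block (1.76, adjusted p = 0.00448). LUM was the 1 fibroblast marker called, higher with a log2 fold change of 2.08 ± 0.21 (adjusted p = 6.24e-05). FBLN1, of the same list, was lower by the adjusted p under the fold threshold (-0.73 ± 0.17, adjusted p = 0.00681). The median log2 fold change of the 8 fibroblast markers was -0.14. Of 5 osteoblast and 5 blood markers, 3 of each were tested and 0 were called by edgeR. An unadjusted p under 0.05 was reached by 1 osteoblast marker (RUNX2, adjusted p = 0.0129). DESeq2 called 1 blood marker, CD3E, which was at 0 in all Control libraries and did not pass edgeR's filter. Their part in the changes of collagen genes was not tested.

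**Figure D5:**
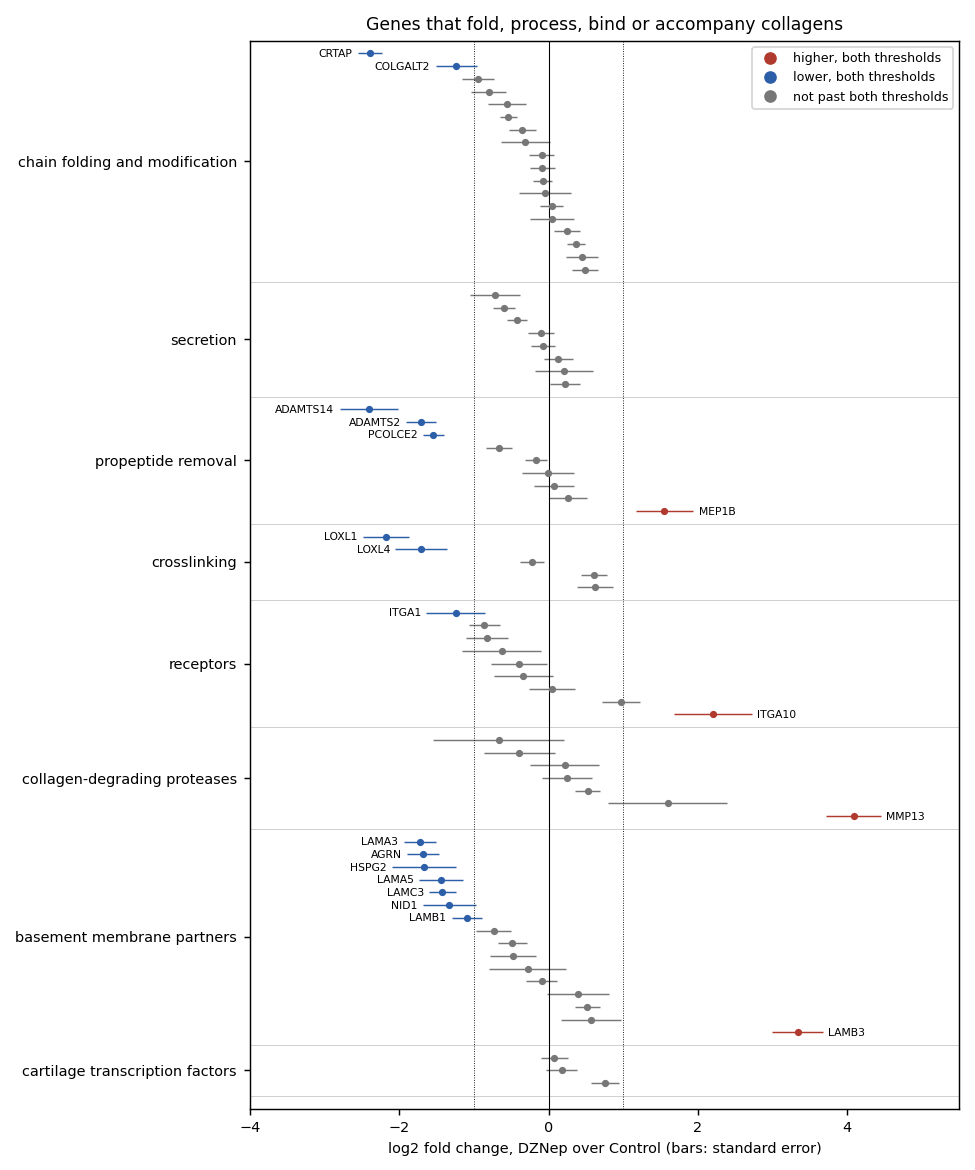
Log2 fold change ± standard error of genes that fold, process, bind or accompany collagens, by list, with the called genes shown named. Basement membrane partners hold 7 of the 15 lower genes, and MMP13, LAMB3, ITGA10 and MEP1B are on the higher side.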

How the data were processed

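The data were 8 RNAseq libraries from HEK293T cells (4 Control, and 4 given 100 µM DZNep for 48 h). The labels name DMEM as the medium and the methods name RPMI. Per the submitters' processing notes and the methods, paired 150 bp reads were trimmed with Trimmomatic 0.36, mapped to GRCh38 with STAR 2.5.2b, and unique exonic reads were counted with featureCounts of Subread 1.5.2. The annotation release and the strand setting are not given in the sources used here. The authors deposited raw counts of 57500 genes, and a signal in normalized counts of 19118 genes, which were checked to equal the counts after division by a size factor of each library, for the genes with over 80 counts. All values printed as normalized counts use these size factors.

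Libraries held 25043058 to 44902779 counts, and their number and spread limit the precision. Symbols were matched for 56410 genes. Columns were matched to samples by replicate number and the initial of the group. The main test was edgeR 4.0.16 (R 4.3.3), quasi-likelihood with TMM on genes passing filterByExpr, with thresholds of 0.05 on the adjusted p and 1 on the absolute log2 fold change, and was tested on simulated data. Alternatives were DESeq2 1.42.0, limma 3.58.1 on log2(normalized count + 1) or + 0.1, other scalings, filters and thresholds, leaving out each library, and the replicate number as a block. The fit without DZNep replicate 2 and with the block was added after seeing the data. Deviations from the group means correlated at 0.136, 0.492, 0.429 and 0.673 between libraries of the same number (for replicate 1 a library of another number reached 0.529). The numbers shared by both groups in the labels were therefore taken as a possible pairing, used only in the fits with the replicate block. The main test had no replicate term, so its p-values do not take a pairing into account.

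All members were accounted for. Values per library were given for called members, the other chains of their collagen types and the most abundant member of each class, and by rule up to 4 called genes were named per partner list. Further genes, 5 basement membrane partners among them, were named with their values known. Exon lengths and coordinates came from GENCODE's annotation of GRCh38, and promoter windows from RefSeq (GRCh38.p14). The members and lists were chosen with earlier results of these data known. Protein sequences were not used here. Results of some genes are not reported here, though they enter the counts.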

Additional observations from a re-analysis of the deposited data

Results flagged for a closer look

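In 78 groups of 4 libraries (39 collagen genes, Control and DZNep apart), 6 held a library far from the other 3 by Dixon's criterion on log2(normalized count + 1), which is 7.69% of the groups, where chance gives about 5%. Of the 6 libraries, 5 were DZNep replicate 2. COL1A1 had 2365 normalized counts there, against 4293 to 4682 in the other DZNep libraries. COL1A2 had 15.3 there, against 1072 to 1647 in the others, and COL6A3 had 11.3, against 353 to 526. COL6A2 had 799 there, against 1460 to 1609, and COL5A3 had 37.9, against 106 to 128. The remaining library was Control replicate 1, in which COL5A3 had 80.2 normalized counts, against 35.8 to 39.3 in the other Control libraries. The cause was not tested.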

How the results depend on the processing

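Of 697 log2 fold changes of collagen genes recomputed under the alternatives, 673 kept their direction and side of the thresholds. With at least 10 counts in every library, which removes COL9A1, COL17A1, COL6A5, COL15A1 and COL23A1 by construction, 3 collagen genes, 2 partner genes and 1141 of all genes were higher, and the share of higher genes among all called went from 44.1% to 36.9%. Testing against a log2 fold change of 1 left 5 lower collagen genes, 3 higher and 8 lower partner genes, and 942 higher and 1066 lower of all genes, against 2041 and 2589. The adjusted p alone gave 12 higher and 24 lower partner genes and 3656 and 4171 of all genes. Leaving out each library gave 6 to 7 higher and 8 to 11 lower collagen genes, 5 to 6 and 13 to 17 partner genes, and 1936 to 2383 and 2322 to 2993 of all genes. The replicate block gave 6 higher and 9 lower collagen genes and changed no call of a collagen gene by both thresholds. COL7A1 was lost without Control replicate 4 (-0.93). COL5A3 was gained under DESeq2, without a filter, and without Control replicate 1 or DZNep replicate 2, COL4A3 without Control replicate 1, Control replicate 2 or DZNep replicate 2, and COL2A1 without Control replicate 1.

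Signs turned for genes that were not called. Leaving out each library gave log2 fold changes from -0.143 to 0.232 for COL9A2 (below 0 without Control replicate 2, -0.052, or DZNep replicate 4), -0.304 to 0.086 for COL9A3 (above 0 without Control replicate 1, Control replicate 4 or DZNep replicate 2), and -0.514 to 0.012 for COL12A1 (above 0 without DZNep replicate 2). They ran from -0.273 to 0.148 for COL21A1 (above 0 without Control replicate 3 or DZNep replicate 4), -0.664 to 0.07 for COL6A3 and -0.297 to 0.103 for COL6A6 (both above 0 without DZNep replicate 2), and -0.012 to 0.584 for COL15A1 (below 0 without DZNep replicate 3). Without DZNep replicate 2 and with the replicate block, COL21A1, COL6A3 and COL6A6 came to 0.042, 0.013 and 0.227. The cause was not tested. The median of all genes moved from -0.03 to at most 0.06 (DESeq2 and no filter, on 40246 genes). COL17A1, COL6A5 and COL9A1 in Control and COL23A1 with DZNep rest on few counts, which limits the precision of their fold changes.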
